A study of Homo sapiens with 3 samples.

Results

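The respiratory chain and the ATP synthase of mitochondria are built from proteins of 2 genomes, and most of the subunits are encoded in the nucleus. These nuclear-encoded transcripts were examined here for crosslinking to HNRNPA0, a member of the hnRNP A/B proteins that bind RNA, carrying an HA tag. Members were the protein-coding genes on chromosomes 1 to 22 and X whose symbols begin with NDUFA, NDUFB, NDUFC, NDUFS, NDUFV, UQCR, COX4 to COX8 or ATP5, together with SDHA, SDHB, SDHC, SDHD and CYC1. The pattern matched 97 RefSeq symbols, of which 2 were readthrough genes and were set aside, leaving 95 members of 19865 protein-coding genes. It also takes in 8 NDUFAF genes, which encode assembly factors of complex I and not subunits of it. NDUFA4 and NDUFA4L2, now listed as COXFA4 and COXFA4L2, fall outside the pattern, and neither gene interval held a peak.

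The study, on proteins that meet G-quadruplex RNA, used easyCLIP: UV light joins RNA to the protein touching it, and the RNA pulled down with the protein is trimmed and sequenced. The cells were HEK293T, a human embryonic kidney line labelled as wild type, transfected with 750 ng of a vector for the HA-tagged protein per 15 cm plate and irradiated at 254 nm with 0.3 J/cm2. The 3 replicates formed 1 group and were pooled after the first adapter had been joined. No control library was used here, and nothing in the labels says whether the replicates came from separate cultures, so the spread between them may be technical. The bound protein was supplied by the vector, so its level in these cells is not that of the endogenous gene.

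The respiratory chain passes electrons from NADH through complex I, or from succinate through complex II, to ubiquinone, then through complex III and cytochrome c to complex IV, which reduces oxygen. Complexes I, III and IV pump protons across the inner membrane, and complex V, the ATP synthase, uses the return flow to make ATP. Complex II is encoded wholly in the nucleus, whereas the other complexes also hold subunits made inside mitochondria. Small nuclear-encoded subunits of complex IV occur in ubiquitous and tissue-restricted forms.

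Each replicate had its own peak list, with coordinates on hg38. The number that ends each peak's name was read as its reads and is called the read number, although the lists do not name it. Distinct peaks numbered 15661 in replicate 1, 15486 in replicate 2 and 17791 in replicate 3, with 100038, 99141 and 114203 summed read numbers outside the mitochondrial genome. The lowest read number was 3. Reads outside peaks were not analysed here, so a gene without a peak is only not listed. RNA levels were not used here, and fewer peaks in a transcript cannot be told apart from less of that transcript. Among markers of embryonic kidney, EYA1 held peaks with read numbers of 3 at most, and PAX2, WT1, SIX2, LHX1 and SALL1 held none. None of 6 genes typical of other cells, such as ALB and PTPRC, held a peak.

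The deposited lists hold positions and no bases. The RefSeq table of gene starts (GRCh38.p14), which covers 250 bases before and 50 after each start, holds the surrounding bases for 3 peaks of members, in the windows of the neighbouring genes MORN5, NDUFB2-AS1 and LRRC41. Each is shown as 30 bases of the RNA strand in DNA letters, with the 4 bases that the list marks inside the peak in capitals, to give examples of crosslinked sequence close to the 5′ ends of these genes.
NDUFA8: agggcttctcgtcGGGGtcggggctgcagc
NDUFB2: ggtccagggtcccGGTGcctggctgcggaa
UQCRH: ccggagatcctgaGGAGgtaaggcaaggcg
That of NDUFA8 is chr9:122159682-122159711 (minus strand), that of NDUFB2 is chr7:140697242-140697271 (plus strand), and that of UQCRH is chr1:46303804-46303833 (plus strand). They hold 14, 13 and 13 guanines in 30 bases. Of the last 30 bases of all 35116 RefSeq windows, the median held 10 guanines, and 23.5% held 13 or more. Those bases lie at a fixed place after each start, whereas the 3 sites lie where the peaks fell, so positions were not matched. Each of the 3 peaks had a read number of 3 and came from 1 replicate, so none belongs to the regions found in all replicates that are described next.

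Transcripts of the respiratory chain were often touched by a weak peak, and a few held peaks in the same place in every replicate. Of the 95 members, 46 (48.4%) held a peak in any replicate, against 5712 of 19865 protein-coding genes (28.8%). Same-strand peaks sharing at least 1 bp, within or between lists, were joined into regions. A region with a peak from all 3 replicates was found in 10 members (10.5%), against 1235 of all protein-coding genes (6.22%). The share with a peak in each of the 3 lists, in 1 region or not, was 14.7% for the members and 14.7% for all genes. A peak with a read number of 10 or more occurred in 5 members (5.26%), against 4.14% of all genes. The median gene interval of the members was 9242 bp, against 24073 bp for all protein-coding genes. These shares are descriptions, with no test attached.

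The 46 members with peaks split into 21 with a peak in 1 list, 11 in 2 lists and 14 in all 3. In 24 of the 46, no peak exceeded the lowest read number of 3. That lowest number was held by 47.7%, 41.6% and 44.4% of members' peaks in replicates 1, 2 and 3. For all nuclear-encoded peaks the shares were close, at 42.3%, 43.1% and 45.6%. Replicates 1, 2 and 3 had 86, 77 and 63 peaks of members, with summed read numbers of 423, 412 and 296. These sums made up 0.423%, 0.416% and 0.259% of the nuclear-encoded read numbers, so replicate 3 was the lowest although its list was the longest. The median read number of members' peaks was 4 in every replicate, as it was for all nuclear-encoded peaks. A read number of 10 or more was reached by 5.81%, 13.0% and 1.59% of members' peaks in replicates 1, 2 and 3, against 11.0%, 11.3% and 9.69% of all nuclear-encoded peaks. Members' peaks lay in a region of all 3 replicates in 20.7% ± 3.20 of cases, and all nuclear-encoded peaks in 16.2% ± 1.21 (SD, n = 3). The 5 members with the largest sums, NDUFS1, COX7C, ATP5F1A, SDHC and ATP5MC3, held 57.2% ± 4.07 of the members' read numbers (SD, n = 3).

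**Figure D1:**
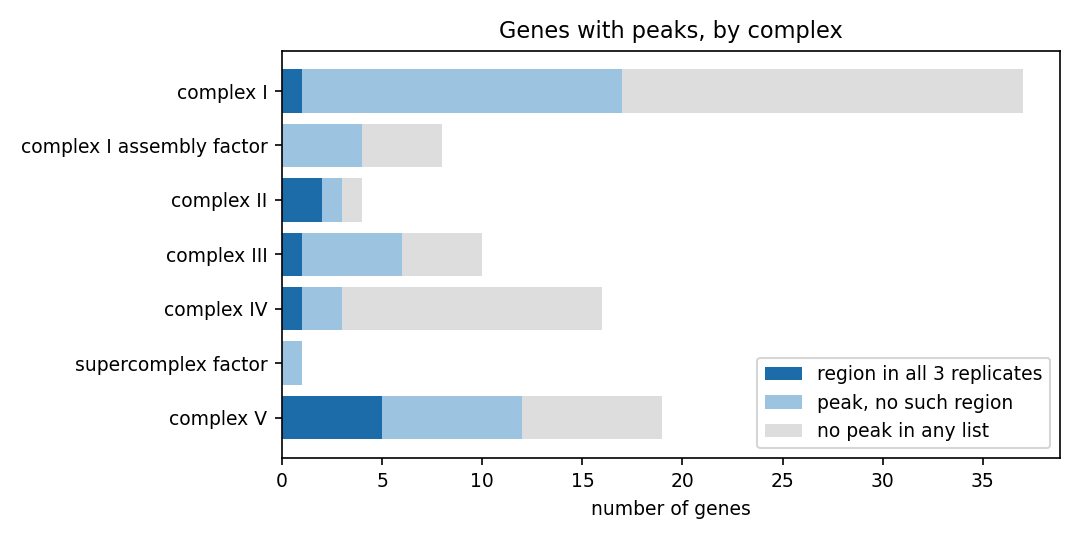
Number of genes (horizontal axis) of each complex or role that held a region in all 3 replicates, a peak without such a region, or no peak in any list. Complex V had 5 of 19 genes with a region in all 3 replicates, and complex I had 1 of 37. Among all protein-coding genes the share was 6.22%.

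Genes with such a region were counted by complex. In complex V, 5 of 19 genes held one, in complex II 2 of 4, in complex III 1 of 10, in complex IV 1 of 16 and in complex I 1 of 37. In that order the shares were 26.3%, 50.0%, 10.0%, 6.25% and 2.7%, against 6.22% of all protein-coding genes. The genes of complex V include ATP5F1B, whose region coincides with a small nucleolar RNA described below. They also include ATP5F1E, where the peaks of replicates 1 and 3 were joined only through that of replicate 2. None of the 8 NDUFAF assembly factors held a region in all 3 replicates, nor did COX7A2L, which takes part in joining complexes III and IV into supercomplexes. A peak in any replicate was found in 12 genes of complex V, 3 of complex II, 6 of complex III, 3 of complex IV and 17 of complex I. Among all protein-coding genes the share with such a peak was 28.8%. The counts by complex are small and were not tested against each other.

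The 14 regions of the 10 genes had low to moderate read numbers. Their median, taken over the mean of the 3 replicates, was 7.17, against 8 for the 2190 regions of all protein-coding genes. The highest region of a member averaged 17.3, and that of any protein-coding gene 215. More than 1 region was held by 4 of the 10 genes, COX7C, NDUFS1, ATP5F1A and ATP5MC3, and the other 6 genes held 1 each. Of the 1235 protein-coding genes with a region, 455 held more than 1 and 780 held 1. Ranked by its best region among the 1235 genes, COX7C stood at 190, NDUFS1 at 350 and SDHC at 385, while ATP5IF1 stood at 1075 and ATP5F1E at 1213.

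**Figure D2:**
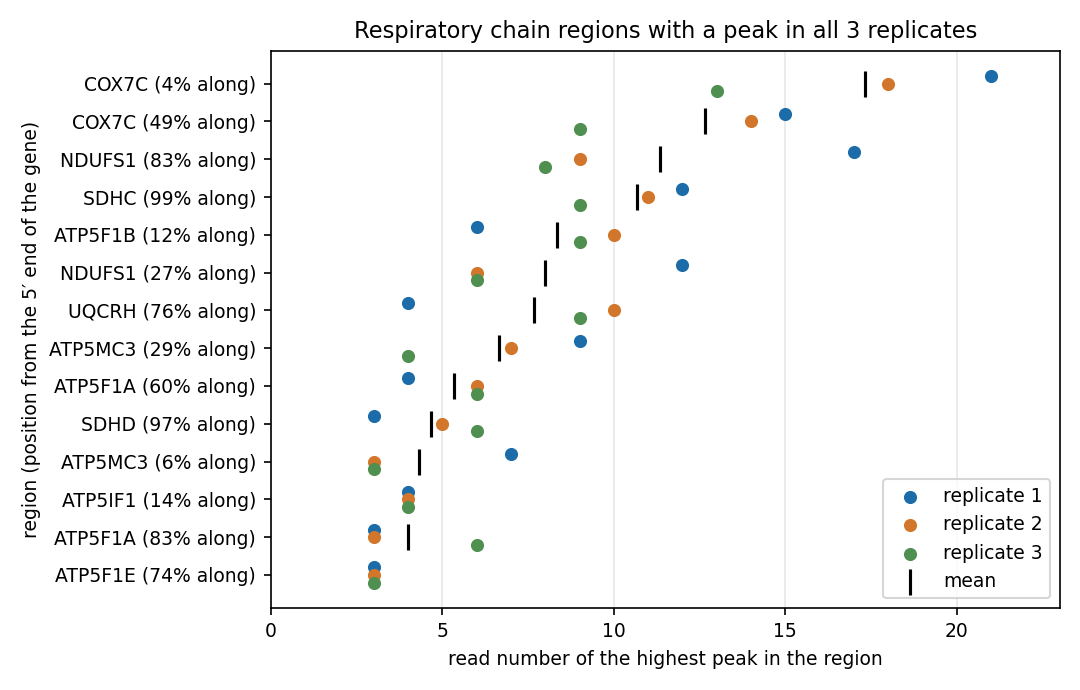
Read number of the highest peak (horizontal axis) in each of the 14 regions with a peak in all 3 replicates, with 1 point per replicate, a bar at the mean, and the position of the region from the 5′ end of its gene beside the symbol. The regions of COX7C at the start and in the middle of the gene averaged 17.3 and 12.7, and the region of ATP5F1E had a read number of 3 in every replicate.

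In complex I, which takes electrons from NADH, NDUFS1 stood apart by the number of its peaks. NDUFS1 is the largest subunit and carries iron-sulphur clusters in the arm that receives the electrons. The gene lies on chromosome 2 from 206114817 to 206159444 and held 17, 15 and 9 peaks in replicates 1, 2 and 3, with summed read numbers of 113, 95 and 57. Its 41 peaks fell into 28 separate stretches, of which 17 were seen in 1 replicate, 9 in 2 and 2 in all 3. They ran from 3.48% to 97.3% of the gene's length, and 4 of the 41 peaks were at the lowest read number of 3. The region from 206122169 to 206122277 had read numbers of 17, 9 and 8, and that from 206147571 to 206147654 had 12, 6 and 6. In both, replicate 1 was the highest and the other replicates lay close together. The marked 4-base stretches of the highest peaks started within 19 bases of each other in the first of these regions and within 14 in the second.

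NDUFS1 weighed on the members' share in every replicate. Without it, the members' summed read numbers were 310, 317 and 239, or 0.310%, 0.320% and 0.209% of the nuclear-encoded total. Replicate 3 remained the lowest.

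The other 36 genes of complex I held no region in all 3 replicates. A peak was found in 16 of them, and the highest were in genes of accessory subunits. NDUFA5 had 1 peak in replicate 1, 4 in replicate 2 and none in replicate 3, with highest read numbers of 5 and 6, and a stretch from 123541499 to 123541659 on chromosome 7 was seen in both of these replicates. NDUFA10 reached 6 and 4 in replicates 1 and 2, and NDUFB3 reached 5 in both, and neither was listed in replicate 3. NDUFB3 shared a stretch from 201085612 to 201085728 on chromosome 2 between replicates 1 and 2, and that stretch ends 22 bases before the 3′ end of the gene. The core subunits NDUFS8 and NDUFV1 each held a single peak of read number 3, in replicate 2, and NDUFS3, NDUFS7 and NDUFV2 held none. Of the assembly factors, NDUFAF2, NDUFAF3, NDUFAF4 and NDUFAF5 held peaks of at most 4. Another 10 peaks, 1 in replicate 1 and 9 in replicate 3, all on the minus strand, lay within both NDUFAF6 and TP53INP1. They were assigned to neither, so they are not counted for NDUFAF6.

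In complex II, succinate dehydrogenase, the 2 genes with a region encode the membrane anchor. SDHC and SDHD form the part that holds the complex in the inner membrane and binds ubiquinone. The region of SDHC lay on chromosome 1 from 161362766 to 161362877 and had read numbers of 12, 11 and 9, the smallest spread among the regions averaging above 10. The region of SDHD lay on chromosome 11 from 112095437 to 112095564, with 3, 5 and 6. Each peak in it was listed under 2 gene IDs, so its assignment to SDHD is less sure. Both regions sat at the 3′ end, with centres 384 and 293 bp before the end of the RefSeq gene interval. They are the only 2 of the 14 regions in the final 10% of their genes.

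The peaks of SDHC also continued past the gene as RefSeq gives it. Of 16 peaks under its gene ID, 9 lay inside the interval and 7 lay downstream, from 477 to 3415 bp beyond its end, on the same strand. The downstream peaks numbered 2, 1 and 4 in replicates 1, 2 and 3, with a highest read number of 6, and no 2 of them overlapped between replicates. The gene ID was tied to SDHC because most of its peaks lay inside. With at least 90% of the peaks required inside, SDHC is not counted and 9 members hold a region. SDHA, the flavoprotein that oxidises succinate, had read numbers of at most 3 and 5 in replicates 1 and 3 and no peak in replicate 2. SDHB, which carries the iron-sulphur clusters, held no peak.

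In complex III, UQCRH was the gene with a region. UQCRH encodes the hinge protein, an acidic subunit beside cytochrome c1. The region lay on chromosome 1 from 46313619 to 46313729, 76.3% along the gene, with read numbers of 4, 10 and 9. Replicate 1 was the low one. Replicate 3 also held a peak of 5 bases at 46303817 to 46303821, the site printed above, which begins 119 bases after the gene start. Another stretch of UQCRH, from 46309108 to 46309126, was listed, at 3 in replicate 2 and at 4 in replicate 3.

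The core proteins of complex III gave weaker or less repeatable peaks. In UQCRC2 there were 2, 2 and 1 peaks, with highest read numbers of 4, 4 and 3, and none of them overlapped between replicates. UQCRC1 reached 9 in replicate 1 and 3 in replicate 3, with no peak in replicate 2. A stretch of it from 48605048 to 48605176 on chromosome 3 was shared by replicates 1 and 3, at 9 and 3. CYC1, which encodes cytochrome c1, held 3 peaks of read number 3, all in replicate 1. UQCR10 and UQCRB held 1 such peak each, also in replicate 1. UQCRFS1, the Rieske iron-sulphur protein, held none.

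In complex IV, cytochrome c oxidase, COX7C held the strongest peaks of all members and 13 of the 16 genes held none. A peak in any list was thus held by 3 of the 16, and by 28.8% of all protein-coding genes. The median gene interval was 6055.5 bp in complex IV, against 24073 bp for all protein-coding genes. COX7C encodes a small membrane-spanning subunit. Its first region lay on chromosome 5 from 86617998 to 86618133, starting 57 bp after the gene start, with read numbers of 21, 18 and 13. The second lay from 86619353 to 86619497, in the middle of the gene, with 15, 14 and 9. In both, the order of the replicates was the same, with replicate 3 lowest. A stretch near the 3′ end, from 86620668 to 86620736, was seen in replicates 2 and 3 with 12 and 6 and not in replicate 1. The gene interval is only 3022 bp, and per kilobase of it the summed read number was 14.0 ± 3.63 (SD, n = 3). The next highest among the 10 genes was ATP5MC3 with 4.77 ± 0.661, and NDUFS1 had 1.98 ± 0.641 (SD, n = 3), on intervals that include introns.

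Among the subunit pairs of complex IV with a ubiquitous and a tissue-restricted form, 1 gene held a peak. COX7B held 1 peak of read number 3 in replicate 3, and COX7B2 held none. COX4I1 and COX4I2, COX6A1 and COX6A2, COX6B1 and COX6B2, COX7A2 and COX7A1, and COX8A and COX8C held no peak in any list. COX5A held 1 peak of read number 4 in replicate 3, and COX5B and COX6C held none.

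Complex V held 7 of the 14 regions, spread over its catalytic head, its rotor and its inhibitor. ATP5F1A and ATP5F1B encode the alpha and beta subunits of the catalytic head. ATP5F1A held 13, 4 and 5 peaks in replicates 1, 2 and 3 and had 2 regions in all replicates, on chromosome 18. The region from 46089827 to 46089938 had read numbers of 4, 6 and 6, and that from 46084158 to 46084276 had 3, 3 and 6. A further stretch, from 46087052 to 46087230, was higher in replicates 1 and 3, with 7 and 8, but was not listed in replicate 2.

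The region of ATP5F1B coincided with a small nucleolar RNA encoded within the gene. On chromosome 12, minus strand, it ran from 56645026 to 56645102, and its read numbers were 6, 10 and 9. SNORD59A, a box C/D small nucleolar RNA, occupies 56645027 to 56645101, so the region extends 1 base past it on each side. The lists also named peaks there under the gene ID of SNORD59A, 1 in replicate 2 with a read number of 9 and 2 in replicate 3 with 8 each. Reads of the small RNA cannot be told apart from reads of the ATP5F1B precursor here. The other 6 peaks of ATP5F1B, with read numbers of 4 to 10, were each seen in 1 replicate.

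The rotor subunit genes ATP5MC3 and ATP5F1E also held regions. ATP5MC3 is a gene for the c subunit, the ring that turns as protons pass. On chromosome 2, its region from 175180098 to 175180179 had read numbers of 9, 7 and 4, and its region from 175181355 to 175181406 had 7, 3 and 3. Of the other c-subunit genes, ATP5MC2 reached 4 and 3 in replicates 2 and 3, and ATP5MC1 held no peak. ATP5F1E, the epsilon subunit, held a single peak of read number 3 in each replicate, on chromosome 20 from 59027174 to 59027278. The peaks of replicates 1 and 3 there did not overlap each other and were joined only through that of replicate 2, the one case of its kind among the 14 regions.

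ATP5IF1 encodes the inhibitor that blocks ATP hydrolysis by the synthase. Its region had a read number of 4 in every replicate and lay on chromosome 1 from 28236352 to 28236446, beginning 228 bp after the gene start. Another 3 genes of complex V held peaks in every list that did not meet in 1 region. ATP5PB, a subunit of the peripheral stalk, held 4, 5 and 4 peaks with highest read numbers of 5, 7 and 3, and 3 of its stretches were shared by 2 replicates. ATP5PF, another stalk subunit, reached 3, 5 and 3, and ATP5F1C, the gamma subunit of the central shaft, had 3 in each replicate. With UQCRC2, these made the 4 members listed in all replicates without a common region. A peak in each list was held by 14 members, of which 10 held a common region. Among all protein-coding genes, 2923 held a peak in each list and 1235 of these a common region.

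How the members compared with all protein-coding genes at the 3′ end turned on the measure, and the members' gene intervals are shorter, as given above. In the final 10% of the gene lay 2 of the 14 regions, or 14.3%, against 39.9% of the 2190 regions of all protein-coding genes. The 95% interval of this 14.3%, which takes the regions as independent, was 1.78% to 42.8% and includes 39.9%. In the last 1000 bp lay 14.3% of the members' regions, against 17.8% of those of all protein-coding genes. The 14 regions come from 10 genes, so they are not independent of each other. In genes of 5000 bp or more, the shares were 2 of 11 regions, or 18.2%, against 41.0%. Counting every peak inside a gene interval, 13.6% ± 3.54 of members' peaks lay in the final 10%, against 32.0% ± 0.695 of all peaks in protein-coding genes (SD, n = 3). The members' shares were 9.52%, 15.8% and 15.5% in replicates 1, 2 and 3, all below the lowest value for all genes, 31.5%. The 3 lists draw on the same genes, so the spread between replicates does not measure differences between genes. In the last 1000 bp the direction was the opposite, with 11.9%, 17.1% and 15.5% of members' peaks in replicates 1, 2 and 3, against 10.9%, 11.5% and 11.1% of the peaks in all protein-coding genes. NDUFS1, with 41 peaks, had 1 in its final 10%.

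**Figure D3:**
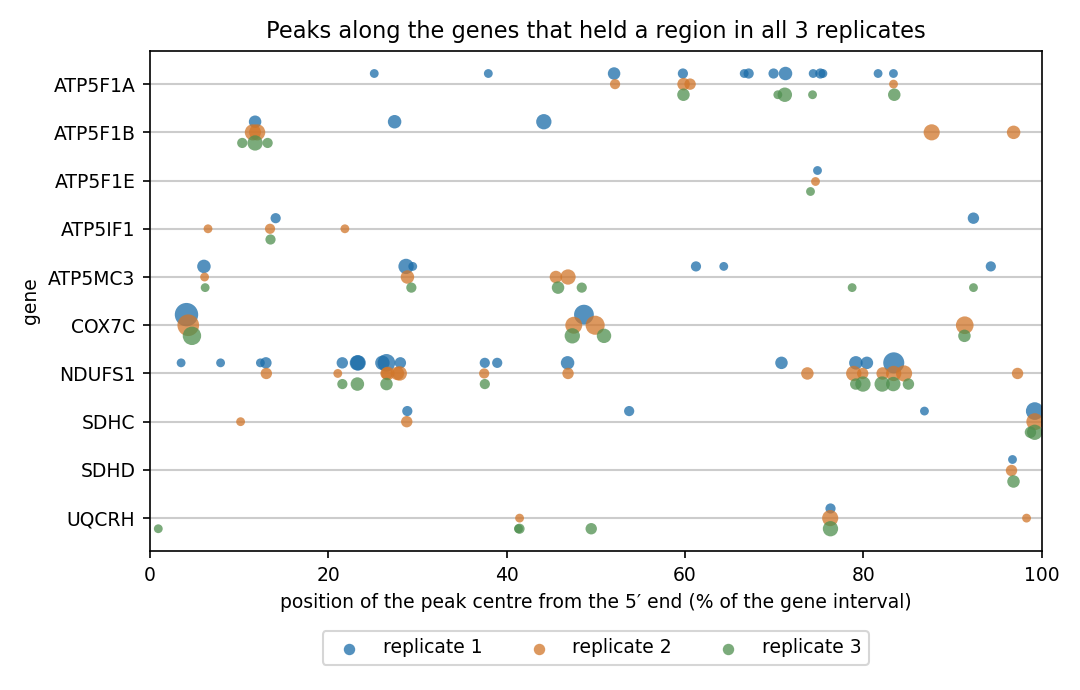
Position of each peak centre from the 5′ end, as a percentage of the gene interval (horizontal axis), in the 10 genes with a region in all 3 replicates, coloured by replicate and with point area in proportion to the read number. Peaks of SDHC downstream of its interval are not drawn. The strongest peaks of COX7C lie near its start and those of SDHC and SDHD near the end.

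Near gene starts, too, the distance measure and the share of the gene gave different gaps. Within the first 1000 bp lay 4 of the 14 regions, or 28.6%, against 3.20% of the regions of all protein-coding genes. They were the first region of COX7C, that of ATP5IF1, the region of ATP5MC3 centred 329 bp from the start, and that of ATP5F1B, centred 920 bp from it, which is the one at SNORD59A. In genes as short as COX7C and ATP5IF1, 1000 bp is a large part of the interval, and by share of the gene 2 of 14 regions lay in the first 10%, against 4.16%. Among all peaks, 10.7% ± 4.78 of those of members and 3.02% ± 0.367 of those of all protein-coding genes lay in the first 1000 bp (SD, n = 3). By share of the gene the values were close, with 8.42% ± 1.88 of members' peaks in the first 10%, against 7.18% ± 0.777 of all peaks in protein-coding genes (SD, n = 3), and in replicate 2 the members were slightly lower, at 6.58% against 6.74%.

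Some peaks ended at the same base in every list. In 3 of the 14 regions, or 21.4%, the 3 replicates shared the first or last base exactly, against 6.76% of the regions of all protein-coding genes. These were the second region of COX7C, whose leftmost base was 86619353 in every list, that of ATP5MC3 at 175180098 and that of ATP5F1B at 56645026. In the second region of COX7C the peaks of replicates 2 and 3 were split in 2 parts, and only the left edge was fixed. The edge of ATP5F1B adjoins SNORD59A, whose leftmost base is 56645027. Exons and introns were not told apart here, so the edges of COX7C and ATP5MC3 were not set against splice sites.

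Near-identical copies can share reads with several of these genes, and how reads with several matches were counted is not given in the sources used here. RefSeq lists 193 pseudogenes whose symbols match the same pattern, including 7 for ATP5F1A, 4 for COX7C and 4 for UQCRH. No gene ID in the lists was tied to any of them, and by position alone 1 peak lay inside one, COX6B1P5, with a read number of 4 in replicate 3 under the IDs of other genes. UQCRHL and ATP5MGL, protein-coding copies of UQCRH and ATP5MG, held no peak.

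**Figure D4:**
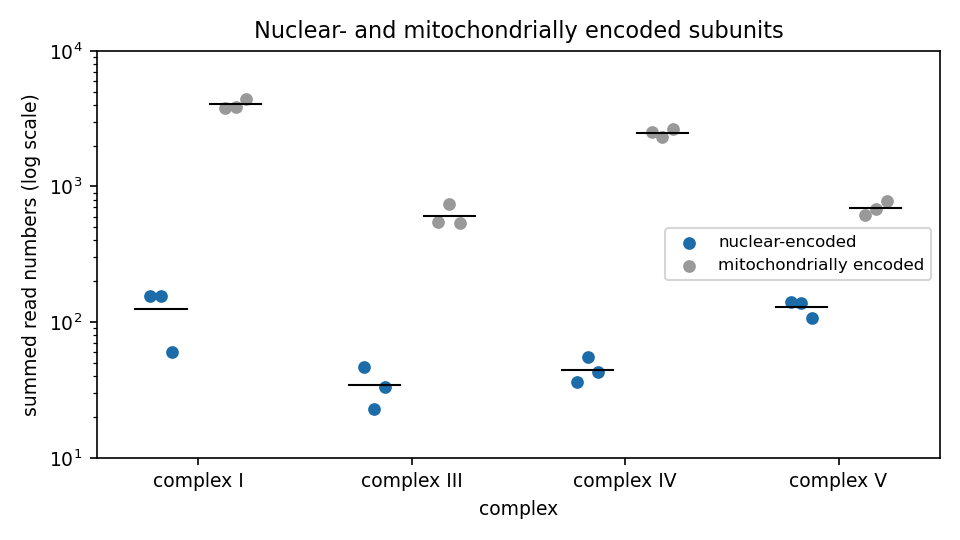
Summed read numbers per replicate (log scale) for the subunits of complexes I, III, IV and V, with the nuclear-encoded genes in blue on the left, the mitochondrially encoded genes in grey on the right, and a bar at each mean. In each complex every nuclear-encoded value lies below every mitochondrially encoded value.

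The nuclear-encoded subunits drew far smaller read numbers than their mitochondrially encoded partners. For complex I the summed read numbers were 124 ± 55.7 for nuclear genes, against 4031 ± 359 for mitochondrial genes (SD, n = 3). For complex IV they were 44.7 ± 9.61 against 2486 ± 171, for complex III 34.3 ± 12.1 against 608 ± 116, and for complex V 129 ± 19.1 against 691 ± 80.7 (SD, n = 3). Neighbouring peaks may hold the same reads, so these sums describe the lists and do not count molecules. The values of the 2 genomes did not overlap in any of the 4 complexes. Both come from the same 3 libraries, and no test was made.

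Other genes that serve the respiratory chain showed regions at shares between 5.88% and 21.4%, against the 6.22% of all protein-coding genes. Of 42 genes for assembly of oxidative phosphorylation complexes, 4 held a region in all 3 replicates. They were LRPPRC, which stabilises mitochondrial messenger RNAs, with 4 regions, and COX18, ATPAF1 and HIGD1A with 1 each. The highest peak of LRPPRC averaged 16.3 ± 0.577 (SD, n = 3). Of 14 genes of the tricarboxylic acid cycle, 3 did, CS with 3 regions and DLD and DLST with 1 each. ETFA was the one of 8 electron carrier genes, and cytochrome c itself, CYCS, was not among them. SLC25A3, the mitochondrial phosphate carrier, was the one of 7 carriers and porins.

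Among 25 genes of mitochondrial protein import, TOMM20, TOMM70 and HSPA9 held regions. TOMM20, a receptor of the outer membrane, reached 95, 49 and 73 in replicates 1, 2 and 3, and TOMM70, another receptor, 38, 31 and 24, all above the highest peak of any respiratory chain member. Of 77 mitochondrial ribosomal protein genes, 5 held a region (6.49%), led by MRPL42 with 21, 10 and 12. Of 17 genes for expression of the mitochondrial genome, TFAM, which packages and transcribes mitochondrial DNA, was the one with a region, and it held 3, with highest peaks averaging 15.7 ± 4.16 (SD, n = 3).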

How the data were processed

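The authors deposited a headerless BED-like list of peaks for each replicate, on hg38 per the submitters' processing notes. Those notes also name bedtools and deepTools, with no versions. Which aligner and peak caller were used, and how molecular identifiers were handled, is not given in the sources used here. The deposited p-value per peak was at most 0.0437, with no adjustment stated. The deposited name of each peak ends in the read number, and the last columns mark a stretch of at most 4 nt within the peak.

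Gene IDs were named by position from RefSeq genes (GRCh38.p14). An ID was tied to the gene that held the largest share, above 50%, of its peak centres on a matching strand. Of 6583 IDs, 6380 were tied, 72 fell to several genes and 131 to none. Strands came from the RefSeq table of gene starts, where listed. Identical intervals under several IDs were counted once. Merging, ties and counts were done in Python 3.11.15 with pandas 2.3.3 and were tested on simulated peaks. The genes named are those with a region in all 3 replicates, the 3 with the highest peaks in each complex, those listed in all replicates without a common region, and pairs of tissue isoforms, with other genes named after their values were seen. The members, lists and rules were chosen with earlier results of these data known. With 1 group and no control, no comparison of conditions was tested.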

Additional observations from a re-analysis of the deposited data

How the results depend on the processing

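The counts depend on how strict a peak must be. When each list was limited to its 50% of peaks with the lowest p-values, 5 members held a region in all 3 replicates, with 7 regions, and 21 members held a peak. With a read number of 5 or more, the values were 4, 6 and 16, and the 4 members left were ATP5F1B, COX7C, NDUFS1 and SDHC. The region of ATP5F1B is the one that coincides with SNORD59A, and none of the alternatives left it out. When a peak from 2 or more replicates sufficed, 37 regions were counted. With each replicate left out, a region needed the 2 remaining lists, and 20 to 23 regions were counted in 10 to 13 members, 37 to 42 members held a peak, the share of read numbers was 0.337% to 0.419%, and 9.09% to 17.4% of regions lay in the final 10%. The number of regions was 22 without replicate 2 and 23 without replicate 3. With 50% of both peaks required to overlap, ATP5F1E dropped out, and with peaks under 1 gene ID only, SDHD did. The share of regions in the final 10% was then 7.69% with peaks under 1 gene ID only, as it was with gene IDs tied at 90%, where SDHC dropped out. Leaving out NDUFS1 or tying gene IDs at 90%, both chosen after the data were seen, gave shares of the read numbers of 0.280% and 0.331%. The remaining alternatives moved the counts by at most 1.5 times. In them the share of read numbers was 0.329% to 0.385%, and 13.5% to 18.2% of regions lay in the final 10%. With 14 regions, the 95% interval of the latter share is 1.78% to 42.8%, too wide to judge such shifts. The planned search for motifs was not run, since the lists hold no bases and no genome was used. No paired analysis was possible because there is 1 group.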
